A study of Homo sapiens with 16 samples.

Results

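The metallothionein family was followed as 9 genes (*MT1A*, *MT1E*, *MT1F*, *MT1G*, *MT1H*, *MT1M*, *MT1X*, *MT2A* and *MT3*) in 3 bulk RNA-seq tables and 2 single-cell libraries of human kidney organoids. The members were listed by name, of 28261 genes listed in at least 1 bulk table. Kidney organoids are spheroids of kidney-like cells, here grown from human embryonic stem cells (line UM77-2 in the bulk samples), and they hold podocyte-like, tubule-like, stromal and some non-kidney cells. Set 1 had 1 library each at days 21, 25 and 29 of culture. Set 2 had 2 libraries (Org1 and Org2) at each of the same days and was refed daily. The TNF set had 1 library each of vehicle control (VC) and TNFα at 5 ng/ml for 24 h and for 48 h. The labels have all of its spheroids collected on day 25 and do not say how the 24 h wells were kept after treatment. The single-cell libraries were organoids at day 24, control (Ctrl) or given TNFα for 24 h, 1 library each. A further single-cell control at day 25 was not analysed here. The bulk samples came from a single stem cell line, and the labels of the single-cell libraries name none. Nothing in the labels says that Org1 and Org2 were separate cultures. The p-values therefore cover only spread between these libraries, which limma estimates for each gene partly from the other genes.

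Metallothioneins are small cysteine-rich proteins that bind zinc and copper, and cadmium when it is present. *MT1* and *MT2* genes are induced by metals through the zinc-sensing factor MTF1, which binds metal response elements upstream of them, and also by glucocorticoids and oxidative stress. *MT3* is best known from the brain. In the kidney the proximal tubule takes up filtered metallothionein and metals and is the cell type in which cadmium builds up.

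The 9 genes lie within 95.1 kb of chromosome 16 (GRCh38, chr16:56589074-56684196). *MT3* (chr16:56589074-56591088) and *MT2A* (chr16:56608584-56609497) come first, followed by *MT1E* (chr16:56625475-56627112), *MT1M* (chr16:56632659-56633981), *MT1A* (chr16:56638666-56640087) and *MT1F* (chr16:56657731-56660698). *MT1G* (chr16:56666730-56668065), *MT1H* (chr16:56669814-56671129) and *MT1X* (chr16:56682470-56684196) close the cluster. *MT1G* is on the minus strand and the other members are on the plus strand. *MT1X* lies wholly inside a longer same-strand lncRNA in the annotation used here, and members are close copies of one another, so reads of single members are uncertain where the counting could split or drop them.

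The upstream bases of 3 members were in the promoter table used (RefSeq, GRCh38.p14), and they are shown for the metal response elements through which MTF1 acts on this family. Capitals mark the core of the metal response element, TGCACNC or TGCGCNC on either strand, in the 250 bases before the start site.

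MT2A (chr16:56608334-56608583, plus strand): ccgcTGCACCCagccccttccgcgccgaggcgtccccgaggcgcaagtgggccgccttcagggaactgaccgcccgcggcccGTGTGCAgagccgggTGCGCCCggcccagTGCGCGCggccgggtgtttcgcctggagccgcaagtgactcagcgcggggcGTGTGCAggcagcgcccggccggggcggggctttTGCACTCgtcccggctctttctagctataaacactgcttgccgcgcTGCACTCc
MT1H (chr16:56669564-56669813, plus strand): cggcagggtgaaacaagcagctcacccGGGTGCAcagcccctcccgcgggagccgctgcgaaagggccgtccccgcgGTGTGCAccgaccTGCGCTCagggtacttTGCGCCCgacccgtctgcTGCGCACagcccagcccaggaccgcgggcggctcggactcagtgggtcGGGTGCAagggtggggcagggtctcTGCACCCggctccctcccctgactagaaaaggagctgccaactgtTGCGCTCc
MT1X (chr16:56682220-56682469, plus strand): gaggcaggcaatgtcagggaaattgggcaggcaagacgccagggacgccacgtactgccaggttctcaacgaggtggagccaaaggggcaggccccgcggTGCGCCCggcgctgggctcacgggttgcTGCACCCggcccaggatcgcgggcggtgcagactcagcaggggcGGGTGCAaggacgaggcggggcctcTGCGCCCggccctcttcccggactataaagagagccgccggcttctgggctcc

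*MT2A* held 7 cores, *MT1H* held 8 and *MT1X* held 4. Of 35116 promoters in the table, 24.8% held at least 1 core in the same window and 0.370% held at least 4. *MT1H* and *MT1X* each had a core that began 53 bases before the start site, and *MT2A* had one at 54 bases.

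Bulk libraries held 19073609 to 59246286 reads. Values were deposited as log2(CPM + 1), where CPM stands for counts scaled to a common library total, and whole reads could be recovered from all of them. In all, 6 members were listed in every bulk table: *MT1E*, *MT1F*, *MT1G*, *MT1H*, *MT1X* and *MT2A*. *MT3* was listed in set 2 alone, with 0 to 2 reads a library. *MT1M* was listed in the TNF set alone, with 10 to 36 reads. *MT1A* was in no bulk table. Of the near-identical copies, the pseudogene *MT1XP1* held 5 to 21 reads in set 2 and 33 to 46 in the TNF set, and *MT1P1* held 2 to 7 reads in set 2. Each table listed 11 or 12 of 12 proximal tubule markers and 11 of 12 podocyte markers, none of them at 0 reads in any library, and 10 of 10 TNF-responsive genes used to check the treatment labels were higher with TNFα.

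*MT1G* had the highest level per length in all 13 bulk libraries. In VC at 24 h it reached 123 RPKM (CPM divided by the annotated exon length in kilobases). This length joins all annotated exons of a gene, and the order depends on it. It was 723 bases for *MT1H*, 751 for *MT1G*, 1727 for *MT1X* and 1852 for *MT1F*. By share of family reads, *MT1F* was above *MT1G* in D21 Org1 (30.1% against 29.9%) and D21 Org2 (40.8% against 19.5%). In VC at 24 h *MT2A* was at 46.0 RPKM, *MT1E* at 42.1, *MT1H* at 33.5, *MT1F* at 25.3, *MT1X* at 6.76 and *MT1M* at 1.30 RPKM. The order of the middle members was close and changed between libraries: at 48 h *MT1H* (45.9 RPKM) stood above *MT1E* (35.5 RPKM) and *MT2A* (34.3 RPKM). Per length, *MT1X* was the lowest of the 6 members listed throughout in all 13 libraries. By share of reads, *MT1H* (6.21%) was below *MT1X* (6.51%) in D21 Org2.

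The first question was how the family changed with time in culture. In set 2 the summed level of the members was 30.5 and 12.3 CPM at day 21, 99.0 and 120 CPM at day 25, and 126 and 66.7 CPM at day 29. Both day 21 libraries were below all 4 later ones. In limma, 6 of 7 members listed in set 2 rose from day 21 to day 25 (Benjamini-Hochberg adjusted p under 0.05 over 27650 genes), where 3.39% of all genes rose and 5.37% changed in either direction. The members' median log2 fold change was 2.05, against -0.00203 over all genes.

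*MT1G* was at 9.13 and 2.39 CPM at day 21, 31.5 and 43.3 CPM at day 25, and 48.8 and 22.6 CPM at day 29. The day 21 libraries did not overlap with the later days, but they differed from each other more than the day 25 libraries did. *MT1G* rose by a log2 fold change of 2.69 ± 0.50 (SE, n = 2 a day, limma adjusted p = 0.0241) to day 25. *MT1H*, its neighbour on the other strand, was at 2.86 and 0.761 CPM, then 14.3 and 18.3 CPM, then 20.1 and 9.36 CPM. Its log2 fold change to day 25 was 2.71 ± 0.41 (SE, n = 2, limma adjusted p = 0.0116), and again no day 21 library reached a later one. *MT2A*, the most widely expressed member in human tissues, was at 4.33 and 1.96 CPM, then 15.6 and 16.9 CPM, then 16.5 and 10.5 CPM. It rose by 2.11 ± 0.29 on the log2 scale to day 25 (SE, n = 2, limma adjusted p = 0.00764).

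*MT1E* was at 3.64 and 1.31 CPM at day 21, 12.3 and 12.9 CPM at day 25, and 14.6 and 5.93 CPM at day 29. *MT1F* was at 9.18 and 5.00 CPM, then 21.6 and 24.6 CPM, then 22.9 and 16.5 CPM. *MT1X* was at 1.38 and 0.798 CPM, then 3.83 and 4.40 CPM, then 3.47 and 1.70 CPM. All 3 genes had both day 21 libraries below both day 25 libraries. Their log2 fold changes to day 25 were 2.05 ± 0.41 for *MT1E*, 1.62 ± 0.25 for *MT1F* and 1.29 ± 0.26 for *MT1X* (SE, n = 2, limma adjusted p = 0.0309, 0.0115 and 0.0300). *MT3*, at 0 to 2 reads, stood at -0.02 ± 0.07 on the log2 scale (SE, limma adjusted p = 0.925), on counts that could not show a difference. Over all genes, 24.4% had both day 25 libraries above both day 21 libraries, and 27.1% had both day 29 libraries above both day 21 libraries, as 6 members did.

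The day 25 calls rested on few libraries. Without D21 Org2, 1 member was called, and without D25 Org1 or D25 Org2 no member was, while the whole table kept 246, 314 and 241 called genes in place of 1486. In both fits without a D25 library, 6 of 7 members had log2 fold changes from 1.22 to 2.91.

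From day 25 to day 29 no member was called in either direction by limma, edgeR or DESeq2, where 2.08% of all genes were called by limma, and no member had an unadjusted p under 0.05 in any of the 3. The day 29 libraries spread widely, from 66.7 to 126 CPM for the family, and their range held both day 25 values of *MT1E*, *MT1G* and *MT1H*. *MT1X* was at 3.83 and 4.40 CPM at day 25 and at 3.47 and 1.70 CPM at day 29. Its log2 fold change was -0.56 ± 0.26 (SE, limma adjusted p = 0.319). Against day 21, 5 of 7 members were higher at day 29, where 10.0% of all genes rose and 18.4% changed. The log2 fold changes were 2.54 ± 0.50 for *MT1G*, 2.50 ± 0.41 for *MT1H*, 1.83 ± 0.29 for *MT2A*, 1.66 ± 0.41 for *MT1E* and 1.39 ± 0.25 for *MT1F* (SE, n = 2, limma adjusted p from 0.00390 to 0.0271). *MT1X* had 0.74 ± 0.26 (adjusted p = 0.0883), and both its day 29 libraries were above both day 21 libraries. Without D21 Org2, which leaves a single library at day 21, fewer members were called at day 29 against day 21. Fewer genes were then called over the whole table too.

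In set 1, with 1 library a day and no test, the family was at 40.1 CPM at day 21, 51.6 CPM at day 25 and 52.2 CPM at day 29. *MT1F* went from 7.89 to 11.1 and 12.3 CPM and *MT1G* from 11.9 to 17.8 and 17.2 CPM. *MT1E* went from 6.15 to 6.35 and 7.68 CPM, *MT1H* from 6.05 to 7.996 and 7.57 CPM, and *MT2A* from 5.78 to 6.31 and 6.59 CPM. *MT1X* went from 2.35 to 2.02 and 0.902 CPM. Thus 5 of 6 members were higher at day 29 than at day 21, by any amount, and *MT1X* was lower. Over all genes the median log2 difference was -0.0045, so a rise of any size was common. In set 2, by contrast, *MT1X* was higher at day 29 than at day 21 in both libraries. One member, *MT1F*, was higher by at least 0.5 on the log2 scale, where 11.6% of all genes were, and *MT1X* was lower by at least 0.5, where 8.38% were. Levels of set 1 and set 2 were not compared, since the tables were normalised separately.

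**Figure D1:**
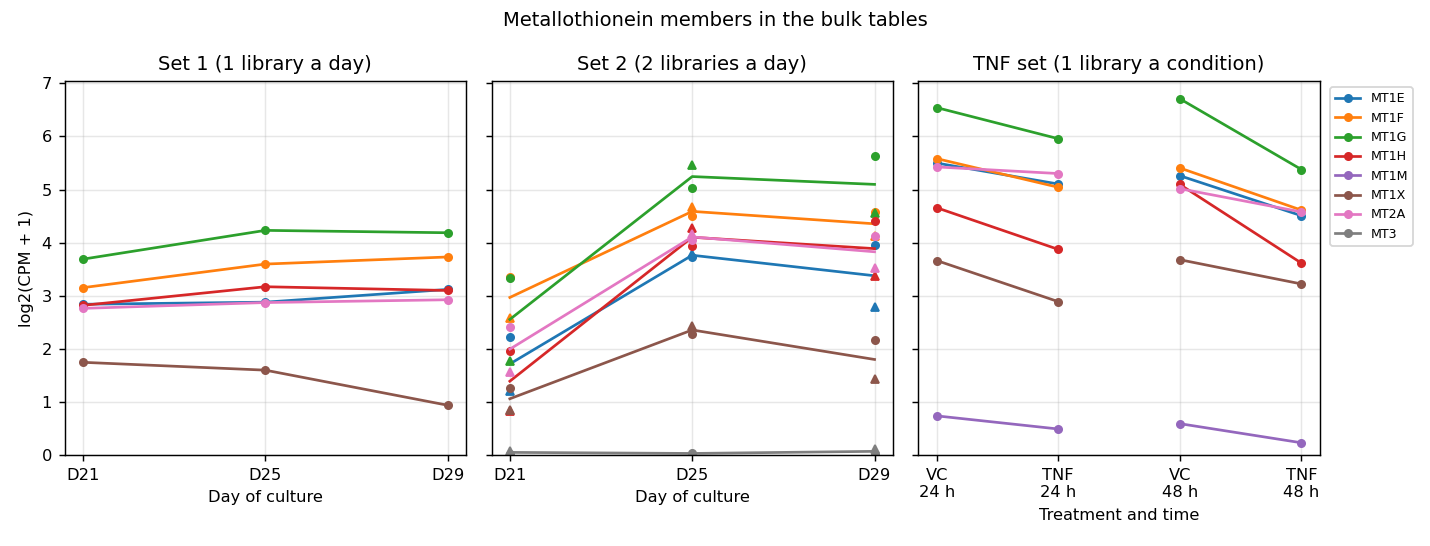
Level of each metallothionein member, as log2(CPM + 1), by day in set 1 and set 2 and by treatment in the TNF set; points are single libraries (in set 2 circles are Org1 and triangles Org2, and lines join the means). In set 2 all day 21 points of the 6 expressed members lie below their day 25 points, and in the TNF set every line from VC to TNF slopes down.

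Proximal tubule and podocyte markers moved differently from the family over the same days of set 2, while stromal markers also rose. Bulk RNA cannot tell fewer cells of a type from less RNA per cell. Of 12 proximal tubule markers, none rose and 1 fell from day 21 to day 25 (the transcription factor *HNF4A*, log2 fold change -0.67), with a median of 0.07. Their summed level was 1565 and 1310 CPM at day 21, 1439 and 1512 CPM at day 25, and 888 and 712 CPM at day 29. Of 11 stromal markers, 8 rose to day 25, with a median of 1.16, led by the small proteoglycan *OGN* (2.97) and the matrix protein *POSTN* (1.82). Of 11 podocyte markers, none was called at day 25 and 7 were lower at day 29. Set against the summed proximal tubule markers, the family level was 1.95% and 0.936% at day 21, 6.88% and 7.96% at day 25, and 14.2% and 9.36% at day 29. The part of these cell types in the family's change was not tested.

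Genes of zinc and copper handling were read against the 5.37% of all genes called at day 25 and the 18.4% called at day 29 against day 21. Of 13 zinc importers of the SLC39 family, none was called at day 25 and 1 at day 29 against day 21 (*SLC39A5*, -1.21). Of 11 zinc exporters, 1 was called at day 25, *SLC30A10*, which also exports manganese (0.64). *SLC30A1*, the plasma membrane exporter that MTF1 also induces, was not called in set 2. Of 11 copper genes, none was called at day 25 and 3 were lower at day 29 against day 21, the exporting pump *ATP7B* (-0.46), the chaperone *ATOX1* (-0.42) and the importer *SLC31A1* (-0.39). The regulator *MTF1* was not called, and of 9 metal-responsive regulators *STAT3* (0.67) and the oxidative stress factor *NFE2L2* (0.40) were higher at day 25. In the list of iron and haem genes, the stress-induced haem oxygenase *HMOX1* was higher at day 25 (0.85) and the ferroxidase *CP* lower (-0.55). Of 10 glucocorticoid-induced genes, *CRISPLD2* alone was higher at day 25 (1.14) and at day 29 (1.59), where 5 others were lower. The median log2 fold changes of these lists to day 25 lay between -0.17 and 0.07.

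The second question was how TNFα, an inflammatory cytokine, changed the family. The summed level was 262 CPM in VC and 185 CPM in TNF at 24 h, and 259 CPM in VC and 128 CPM in TNF at 48 h. In limma with time and treatment as terms, 6 of 7 listed members fell with TNFα, where 10.8% of 21093 genes fell and 19.3% changed. Each condition had 1 library, so the 2 times stood in for replicates. The fit left 1 residual degree of freedom, so the SEs and p-values below rest largely on spread that limma borrows from other genes. The members' median log2 fold change was -0.61, against -0.03 over all genes.

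*MT1H* had the largest fall. It was at 24.3 CPM in VC and 13.7 CPM in TNF at 24 h, and at 33.2 CPM in VC and 11.3 CPM in TNF at 48 h, a log2 fold change of -1.13 ± 0.12 (SE, limma adjusted p = 2.3e-06). *MT1G* was at 92.3 CPM in VC and 61.2 CPM in TNF at 24 h, and at 104 CPM in VC and 40.6 CPM in TNF at 48 h, a log2 fold change of -0.96 ± 0.11 (SE, limma adjusted p = 6.0e-06). *MT1F* went from 46.9 to 32.0 CPM at 24 h and from 41.4 to 23.5 CPM at 48 h. Its log2 fold change was -0.67 ± 0.08 (SE, limma adjusted p = 9.5e-06).

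*MT1E* went from 44.2 to 33.4 CPM at 24 h and from 37.4 to 21.8 CPM at 48 h, and *MT1X* from 11.7 to 6.41 CPM and from 11.8 to 8.34 CPM. Their log2 fold changes were -0.57 ± 0.09 and -0.61 ± 0.11 (SE, limma adjusted p = 0.000114 and 0.000664). *MT2A* went from 42.0 to 38.5 CPM at 24 h and from 31.4 to 22.9 CPM at 48 h. Here the TNF library at 24 h stood above the VC library at 48 h, and the log2 fold change was -0.28 ± 0.09 (SE, limma adjusted p = 0.0272). Without the 48 h TNF library, in a fit with no time term, *MT2A* had 0.0801. *MT1M* went from 0.663 to 0.400 CPM and from 0.501 to 0.169 CPM, on 36, 21, 25 and 10 reads, a log2 difference of -0.30 ± 0.10 (SE, limma adjusted p = 0.0513).

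At the separate times, all 7 listed members were lower with TNFα at 24 h and at 48 h, where 39.7% of all genes were lower at both. In total, 4 members were lower by at least 0.5 on the log2 scale at 24 h (*MT1F*, *MT1G*, *MT1H* and *MT1X*), where 4.74% of all genes were, and 4 at 48 h (*MT1E*, *MT1F*, *MT1G* and *MT1H*), where 4.08% were. The difference was larger at 48 h than at 24 h for 6 of 7 members, as it was for 46.0% of all genes lower at both times, with -1.48 against -0.78 for *MT1H* and -1.33 against -0.59 for *MT1G*. *MT1X* went the other way, with -0.46 at 48 h and -0.77 at 24 h. With 1 library each, the difference between the times was not tested. The calls also depended on the time term: without it 3 members were called of 7, where 1310 of 21093 genes were called in place of 4061.

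**Figure D2:**
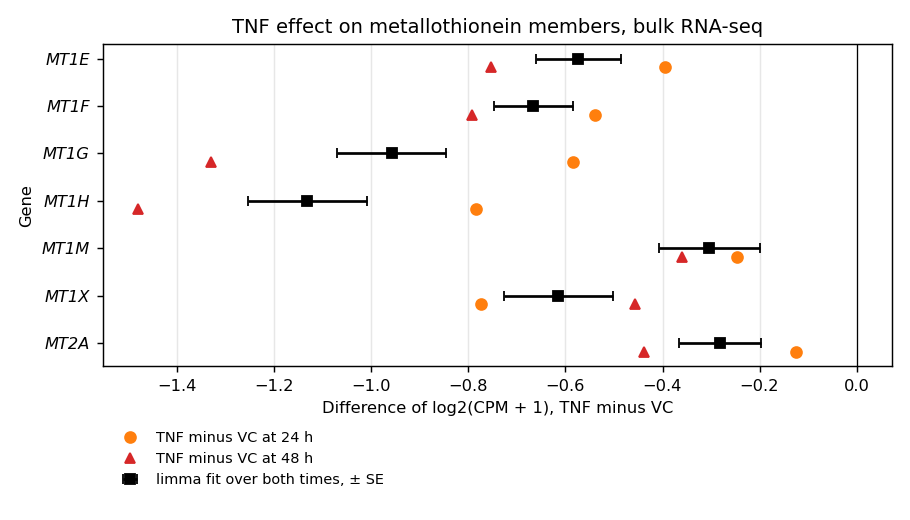
Difference of log2(CPM + 1) between TNF and VC for the 7 members of the TNF set; squares and bars are the limma estimate over both times with its SE, circles the single difference at 24 h and triangles that at 48 h. All points lie below 0, and *MT1G* and *MT1H* lie farthest from it at 48 h.

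Proximal tubule markers fell with the family. Of 12, 10 fell and none rose with TNFα, with a median log2 fold change of -0.86, led by the phosphate transporter *SLC34A1* (-2.60), *HNF4A* (-1.10), the uptake receptor *CUBN* (-1.09) and *PDZK1* (-1.05). Their summed level was 1879 CPM in VC and 964 CPM in TNF at 24 h, and 1957 CPM in VC and 1000 CPM in TNF at 48 h. As a ratio of TNF to VC the markers stood at 0.513 and 0.511 at the 2 times (24 h and 48 h), and the metallothionein family at 0.708 and 0.496. All 11 podocyte markers also fell, with a median of -0.82. Their part in the family's fall was not tested.

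The gene lists below were read against the 19.3% of all genes called with TNFα. Among the zinc importers, *SLC39A5* (-1.17) and *SLC39A4* (-1.02), which bring zinc into epithelial cells, fell with TNFα, as did 1 more of 13. *SLC39A8* (0.39) and *SLC39A14* (0.27) rose. Of 10 exporters, *SLC30A1* (-0.25) and *SLC30A4* (-0.29) fell and *SLC30A2* rose (0.52). *SLC30A1* changed sign without the VC 24 h library (0.26) and without the TNF 48 h library (0.0717), in fits with no time term. Of 12 copper genes, *SLC31A2* rose (0.73) and *ATP7B* fell (-0.35). Of the regulators, *STAT3* (0.60) and *NFE2L2* (0.25) rose and *MTF1* was not called. *HMOX1* fell by 1.30 on the log2 scale, and 6 of 10 glucocorticoid-induced genes rose and 1 fell, with a median of 0.30, led by *CRISPLD2* (1.72), with *FKBP5* at 0.49, *KLF9* at 0.46 and *TFCP2L1* at -0.46. The zinc, copper and regulator lists had medians between -0.05 and 0.14.

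The third question was which cells held the transcripts. Of 12494 Ctrl and 23160 TNF barcodes, 11906 and 23160 had over 500 detected genes, with median depths of 6359 and 2599 UMIs (unique molecular identifiers, 1 per captured transcript). Among these cells 74 barcodes occurred in both libraries. Clustering without metallothionein and other metal genes gave 14 clusters, of which 9 carried 7 names by their markers and 5 stayed unnamed. The proximal tubule-like class (1271 Ctrl and 3585 TNF cells) had 9 of 12 markers of that type raised, and also 5 distal tubule markers. *MT1G* was the second gene by fold in its cluster. Cells are not replicates and each condition had 1 library, so no test was possible, and the intervals below cover counting error only.

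The proximal tubule-like class held most of the family. In Ctrl the 9 members summed to 900 CPM there (95% Poisson interval 886 to 914), against 113 CPM in podocyte-like, 97.0 in muscle-like, 60.8 in proliferating-like, 51.1 in neural progenitor or glial-like, 30.7 in stromal-like and 19.1 CPM in neuronal-like cells. Among the named classes it was thus 7.99-fold above the next one, the podocyte-like class, and 47.1-fold above neuronal-like cells. Of 21424 family UMIs in Ctrl, 16793 came from proximal tubule-like cells, which were 10.7% of cells. In TNF the class was at 470 CPM (460 to 481), 4.90-fold above podocyte-like cells (96.0 CPM). An unnamed cluster with 173 cells in Ctrl and 389 in TNF was above the podocyte-like class, at 177 CPM (148 to 209) and 114 CPM (102 to 128). Another unnamed cluster was at 109 CPM in TNF, with an interval of 95.3 to 124 CPM that included the podocyte-like level. The proximal tubule-like class stayed the highest named class in both libraries under each alternative clustering, filter and depth tried, at 6.16 to 10.3-fold above the next named class in Ctrl and 3.66 to 5.88-fold in TNF. The 12 proximal tubule markers summed to 2379 CPM in this class in Ctrl and to 115 to 300 CPM in the other named classes. At a finer clustering (resolution 0.5) the class split into a distal tubule-like part (578 Ctrl and 1254 TNF cells) and a proximal tubule-like part (682 and 2331 cells). The proximal tubule-like part was at 1409 CPM in Ctrl.

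**Figure D3:**
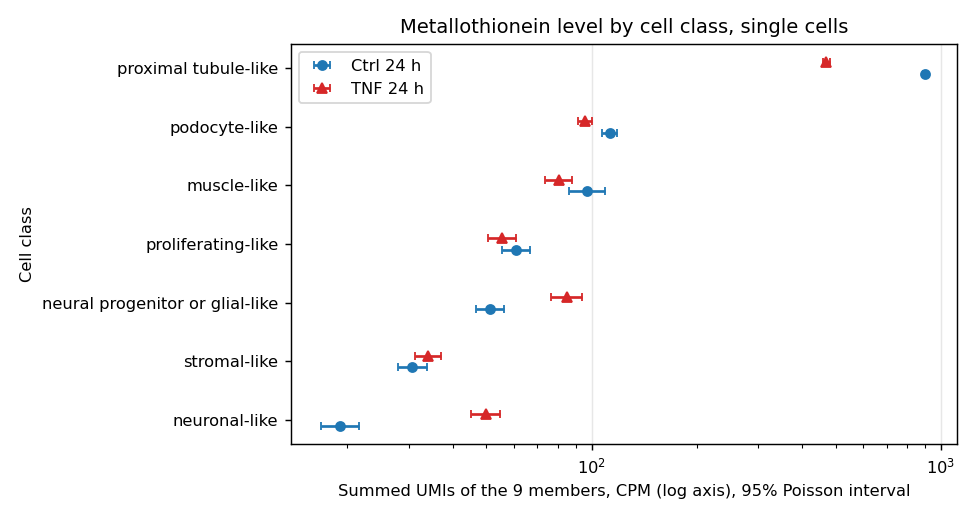
Summed level of the 9 members in each named cell class, in CPM on a log axis with 95% Poisson intervals, for the Ctrl (circles) and TNF (triangles) library. Proximal tubule-like cells stand highest in both libraries, at 900 CPM in Ctrl and 470 CPM in TNF.

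Members differed in where they were found. *MT1G* was at 297 CPM in proximal tubule-like cells of Ctrl and at 0.874 CPM in its lowest class, neural progenitor or glial-like cells. *MT1H* had its highest level in proximal tubule-like cells too (131 CPM) and its lowest in stromal-like cells (0.566 CPM). *MT1E* (97.3 CPM) and *MT1F* (112 CPM) also peaked there, with lows of 0.328 CPM in neural progenitor or glial-like cells for *MT1E* and 0.765 CPM in the same class for *MT1F*. *MT1X* was at 149 CPM in proximal tubule-like cells, at 57.2 CPM in podocyte-like cells and at 10.5 CPM in its lowest class, neuronal-like cells. *MT2A* was at 113 CPM in proximal tubule-like cells, at 37.3 CPM in proliferating-like cells and at 3.82 CPM in neuronal-like cells, its lowest class. The range from highest to lowest class was therefore wider for *MT1E*, *MT1F*, *MT1G* and *MT1H* than for *MT1X* and *MT2A*. The lows rested on few UMIs: 8 for *MT1G*, 8 for *MT1H*, 7 for *MT1F* and 3 for *MT1E*.

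The makeup of the family differed between classes. In proximal tubule-like cells of Ctrl, *MT1G* made up 33.0% of the family UMIs (exact binomial interval 32.3 to 33.7%), *MT1X* 16.5% and *MT2A* 12.5%. In podocyte-like cells *MT1X* made up 50.8% (48.3 to 53.2%) and *MT1G* 2.92%. In neural progenitor or glial-like cells *MT2A* made up 63.5% (58.9 to 67.8%), and in proliferating-like cells 61.4% (56.9 to 65.8%). In TNF the same members led podocyte-like (*MT1X*, 44.5%), neural progenitor or glial-like (*MT2A*, 45.8%) and proliferating-like cells (*MT2A*, 40.4%). The leading member differed between the libraries in stromal-like cells (*MT2A* at 46.0% in Ctrl, *MT1X* at 37.0% and *MT2A* at 36.4% in TNF) and in muscle-like cells (*MT1G* at 26.2% in Ctrl, *MT1X* at 31.5% in TNF). The share of *MT1G* in podocyte-like, neural progenitor or glial-like and proliferating-like cells was higher in TNF, at 6.91%, 16.2% and 8.63%, than in Ctrl, at 2.92%, 1.71% and 4.40%.

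**Figure D4:**
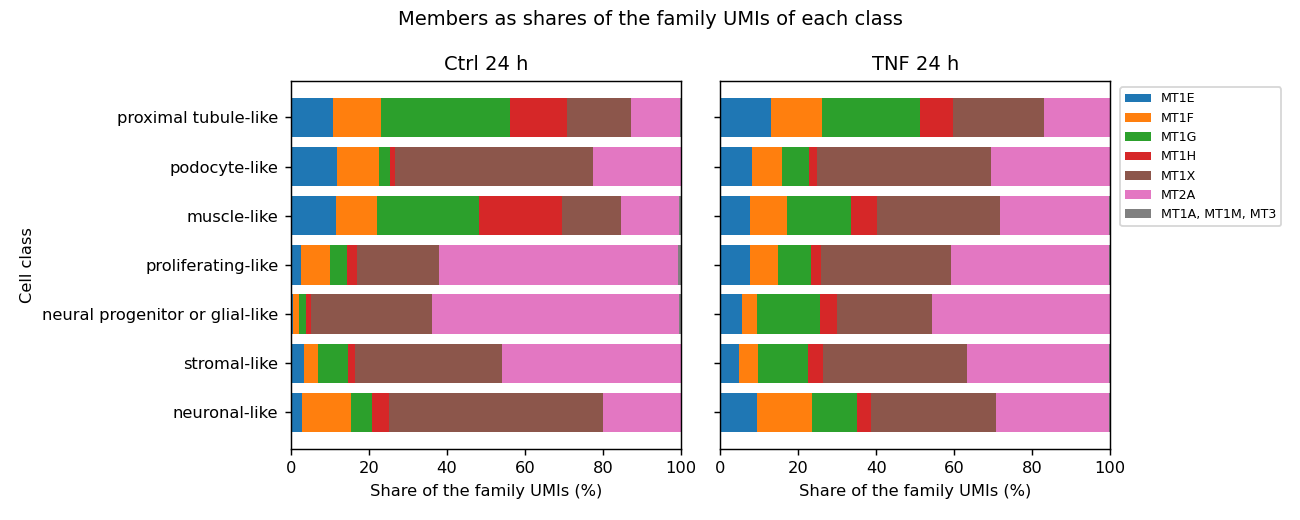
Share of each member in the family UMIs of each named cell class, in percent, for the Ctrl and TNF libraries. *MT1G* leads in proximal tubule-like cells, *MT1X* in podocyte-like cells and *MT2A* in neural progenitor or glial-like and proliferating-like cells.

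*MT1X* made up 21.5% of the family UMIs over all Ctrl cells but 4.46% of the family reads in bulk VC at 24 h. The single-cell assay reads the 3′ end and the bulk assay the whole transcript. The authors also took whole wells for single cells and isolated spheroids for bulk RNA, so the material was unlike. The part of assay, material and the overlapping lncRNA in this difference was not tested. *MT1M* had 19 UMIs in Ctrl, all in proximal tubule-like cells, and 10 in TNF, 9 of them there. *MT3* had 34 UMIs in Ctrl, of which 24 lay in 1 unnamed cluster of 836 cells led by *SPRR2F*, *NPY* and *PLP2* (3.65 CPM, interval 2.34 to 5.43), and 12 in TNF, 4 of them in that cluster. *MT1A* had 1 UMI in each library. *MT1B*, *MT4* and *MT1HL1*, which are not among the 9 members, had none.

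Within the proximal tubule-like class, which includes the distal tubule-like part named above, the transcripts were unevenly spread. The tenth of cells with most family UMIs held 91.5% of them in Ctrl and 81.1% in TNF, and single cells held up to 1054 and 382 family UMIs. The median cell held 1 family UMI in Ctrl and 0 in TNF. Cells above 1000 family CPM were 119 of 1271 in Ctrl (9.36%) and 333 of 3585 in TNF (9.29%), a cut chosen after the values were seen. A cell of lower depth reaches this cut with fewer family UMIs. The median depth of the class was 8977 UMIs in Ctrl and 2571 in TNF, so the shares are not at equal depth. In Ctrl the cells above the cut held 87.9% of the family UMIs of the class. They had a median of 16566 UMIs against 8649 in the other cells, and 5232 CPM of proximal tubule markers against 1824 CPM. In TNF they held 72.6% of the family UMIs, had a median of 2679 UMIs against 2566.5, and had 2385 CPM of these markers against 1261 CPM.

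With TNFα the family was lower in proximal tubule-like cells, at 470 against 900 CPM, a ratio of TNF to Ctrl of 0.523 (interval 0.508 to 0.537). The cells above 1000 family CPM, set apart by these same values and at unlike depth, went from 4860 to 3403 CPM. The other cells of the class were at 130 CPM in Ctrl and 143 CPM in TNF. *MT1H* went from 131 to 39.9 CPM (ratio 0.304, interval 0.278 to 0.332) and *MT1G* from 297 to 118 CPM (ratio 0.397, 0.376 to 0.418). *MT1F* went from 112 to 61.8 CPM (0.553, 0.512 to 0.597) and *MT1E* from 97.3 to 61.3 CPM (0.630, 0.582 to 0.681). *MT2A* went from 113 to 79.7 CPM (0.707, 0.658 to 0.758) and *MT1X* from 149 to 109 CPM (0.734, 0.691 to 0.780). The order of the members was led by *MT1H*, *MT1G* and *MT1F*, the same 3 that had the largest falls in the bulk fit over 24 h and 48 h. In bulk at 24 h alone, the time of the single-cell libraries, the order differed. There *MT1X* (log2 difference -0.77), with the highest ratio here, stood second to *MT1H* (-0.78), before *MT1G* (-0.59) and *MT1F* (-0.54). Of 6 members at 20 CPM or more, 4 were lower by at least 0.5 on the log2 scale, where 3.64% of 6537 genes of the class were, both on log2(CPM + 1). *MT2A* lay at the edge of this limit, with a log2 ratio of -0.50 without the added 1.

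Depth, marker level and share of cells moved with this ratio, and their part in it was not tested. The median depth of the class was 8977 UMIs in Ctrl and 2571 in TNF. Its proximal tubule markers went from 2379 to 1374 CPM, a ratio of 0.577. The class was 10.7% of Ctrl cells and 15.5% of TNF cells. With each cell thinned to 1500 UMIs, which gives cells equal weight and keeps 1225 of 1271 Ctrl and all 3585 TNF cells of the class, the family was at 570 CPM in Ctrl and 388 CPM in TNF, a ratio of 0.680. At that depth 20.2% of Ctrl cells (17.9 to 22.5%) and 25.8% of TNF cells (24.4 to 27.3%) had a family UMI, against 50.4% and 37.5% before thinning. In neuronal-like cells, the lowest class in Ctrl, these shares were 3.33% and 8.18% after thinning. At least 5 family UMIs were found in 4.98% of Ctrl cells (3.83 to 6.35%) and 2.57% of TNF cells (2.07 to 3.14%), and at least 10 in 2.86% (2.00 to 3.95%) and 0.753% (0.497 to 1.09%). At this depth cells with 1 or more family UMIs were the larger share in TNF, in both classes, and proximal tubule-like cells with 5 or more the smaller one.

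**Figure D5:**
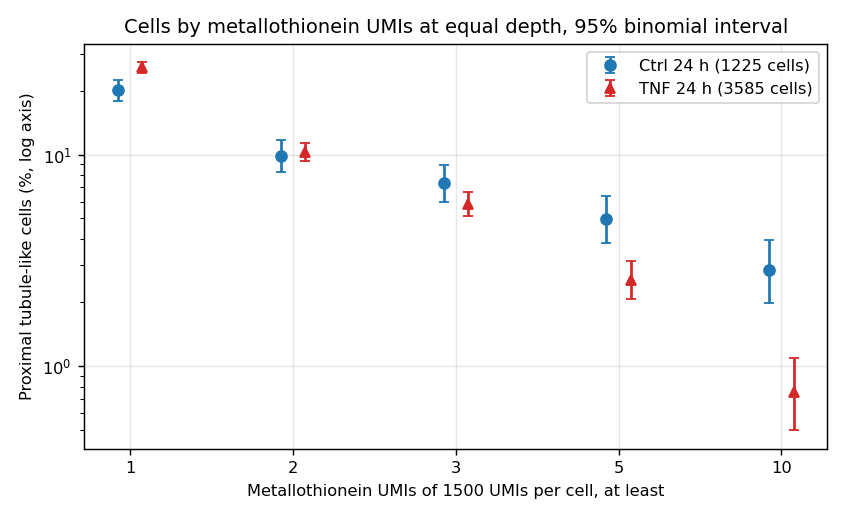
Share of proximal tubule-like cells, in percent on a log axis, with at least 1, 2, 3, 5 or 10 family UMIs after each cell was thinned to 1500 UMIs; bars are 95% binomial intervals, circles Ctrl and triangles TNF. TNF stands above Ctrl at 1 UMI (25.8% against 20.2%) and below it at 10 UMIs (0.753% against 2.86%).

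In the other classes levels were lower, and the direction differed between classes. The ratio of TNF to Ctrl was 0.852 in podocyte-like cells (0.797 to 0.911), 0.831 in muscle-like, 0.912 in proliferating-like, 1.11 in stromal-like, 1.66 in neural progenitor or glial-like (1.44 to 1.91) and 2.61 in neuronal-like cells (2.23 to 3.06). After thinning, all of these named classes were above 1, with podocyte-like cells at 1.14, muscle-like at 1.10 and proliferating-like at 1.16. Without alignment of the libraries neuronal-like cells had 0.994 and stromal-like cells 0.646. In that setting an unnamed cluster took 14459 TNF and 595 Ctrl cells. The named classes therefore kept fewer TNF cells, and these ratios compare unlike parts of the 2 libraries. The proximal tubule markers went from 115 to 204 CPM in neuronal-like cells and from 224 to 236 CPM in neural progenitor or glial-like cells, and their part in these ratios was not tested. In muscle-like cells of Ctrl, 184 of 275 family UMIs came from 2 cells, and the ratio was 2.16 without the cells of highest doublet score. Within the podocyte-like class *MT1X* went from 57.2 to 42.7 CPM and *MT1E* from 13.4 to 7.82 CPM, whereas *MT1G* went from 3.29 to 6.63 CPM. Over all cells the family was at 213 CPM in Ctrl and 137 CPM in TNF (ratio 0.645), and at 107 and 124 CPM after thinning (ratio 1.16).

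In proximal tubule-like cells the values of *MTF1* and of its other target *SLC30A1* were close in both libraries. *MTF1* was at 8.57 CPM in Ctrl (7.30 to 10.0) and 9.73 CPM in TNF (8.25 to 11.4), and *SLC30A1* at 18.4 CPM (16.5 to 20.5) and 19.5 CPM (17.4 to 21.8). Both pairs of intervals overlapped.

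Over the 14 values of 7 named classes in 2 libraries, the genes most like the family among 5426 were *PTGR1* (Pearson r = 0.967), *MORN2* (0.965), *JAG1* (0.961), *DPEP1* (0.956) and *UGT2B7* (0.954). These are correlations across classes that share libraries and depth, given as a description with no test. All 5 genes were highest in proximal tubule-like cells of Ctrl, from 75.7 CPM for the brush border enzyme *DPEP1* to 693 CPM for *PTGR1*, a reductase of lipid mediators.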

How the data were processed

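Per the labels, the authors aligned bulk reads with STAR 2.7.8a to GRCh38 and counted them with HTSeq 0.11. The authors deposited log2 values, log2(CPM + 1) with 0.5 added to each count. All values came back as whole reads, so depth was known (19073609 to 59246286 reads). Limma 3.58.1 (R 4.3.3, trend) was fitted on each whole table with Benjamini-Hochberg adjustment, and edgeR 4.0.16 and DESeq2 1.42.0 ran on the recovered reads as alternatives. The single-cell files hold deposited UMI counts from Cell Ranger (2.1.1 per the labels, another version per the file header). Cells with over 500 genes were clustered on 2000 variable genes a library (30 components, Harmony alignment, 20 neighbours, Leiden resolution 0.25), with mitochondrial and metal genes left out. UMIs were summed per class, and exact 95% Poisson and binomial intervals cover counting error only. No doublets were removed. Scripts were tested on simulated data. The 9 members were all described, and of other lists the called genes, at most 4 a list and comparison with the largest fold change, were named. Members and lists were chosen with earlier results of these data known. Alternatives covered tools, filters, pseudocount, centring, left-out libraries, clustering and depth.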

Additional observations from a re-analysis of the deposited data

Results flagged for a closer look

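*MT1X* moved in opposite directions between day 21 and day 29 in the 2 bulk time courses (set 1 and set 2). In set 1 the log2 difference was -0.81, on 69 and 23 reads with 1 library a day. In set 2 the log2 fold change was 0.74, with both day 29 libraries above both day 21 libraries. The difference between the sets was not tested.

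The ratio of the summed family level in TNF to that in Ctrl differed in direction between cell classes. It was 0.52 in proximal tubule-like cells, 1.66 in neural progenitor or glial-like cells and 2.61 in neuronal-like cells. The proximal tubule markers also went from 115 to 204 CPM in neuronal-like cells and from 224 to 236 CPM in neural progenitor or glial-like cells, and their part was not tested. Without alignment of the libraries the neuronal-like ratio was 0.994, in a setting where an unnamed cluster took 14459 TNF and 595 Ctrl cells. Each condition had 1 library, and the difference between classes was not tested.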

How the results depend on the processing

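For day 25 against day 21 the number of members called was 6, and 3 without the mean-variance trend. Leaving out 1 library in turn gave 0 to 6. For day 29 against day 21 it was 5, and 3 to 6 with a library left out. For day 29 against day 25 it was 0 under every alternative. Leaving out a D25 library left the fit unable to call any gene of the table, so 0 there says nothing about the members. With the replicate number (Org1, Org2) as a block, the counts were 6, 5 and 0 for day 25 against 21, 29 against 21 and 29 against 25. Same-numbered libraries correlated at 0.141, 0.075 and 0.269 in their deviations from the day means, so the numbers were not taken as pairs. For TNF the count was 6, 3 without the time term, 4 by DESeq2, and 1 to 4 with a library left out, also without the time term (2 without the 24 h VC library and 2 without the 48 h TNF library).

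Calls over all genes moved by more than 1.5 times in some fits. They were fewer in most of the fits with a library left out, from which member counts above were also taken. For day 29 against day 25, 574 genes were called, against 1336 by edgeR, 1288 by DESeq2, 1124 with a mean of at least 1 CPM, 1106 with median centring, 1118 with the block and 209 without the trend. For TNF, 4061 were called, against 2184 by DESeq2 and 1310 without the time term.

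*MT2A* had 0.0801 with TNF without the 48 h TNF library, and *SLC30A1* had 0.26 without the 24 h VC library and 0.0717 without the 48 h TNF library. The proximal tubule-like ratio of TNF to Ctrl was 0.458 at resolution 0.5, 0.594 without alignment, 0.454 over 1000 genes, 0.567 without the highest doublet scores and 0.680 after thinning, so it was lower with TNF in all of these. Other classes changed direction: podocyte-like at 1.14 and proliferating-like at 1.16 after thinning, neuronal-like at 0.994 and stromal-like at 0.646 without alignment, and muscle-like at 1.47 over 1000 genes, 2.16 without the highest doublet scores and 1.10 after thinning. Without alignment an unnamed cluster took 14459 TNF and 595 Ctrl cells, and the proximal tubule-like class kept 783 TNF cells in place of 3585. All cells together had 1.16 after thinning. The cause was not tested. Scrublet's own threshold called no cell, so the alternative without its doublets gave no value, and the one by score was chosen after seeing the data.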
